A study of Mus musculus with 8 samples.

Results

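Nucleoporins are the proteins that build the nuclear pore, and the transcripts of 31 of them were followed here in RNA from adult mouse testis. The members were a list of 31 nuclear pore gene symbols, matched to Ensembl gene identifiers. All 31 were found among the 24988 genes of the expression table, and all 31 passed the filter on low values that left 22027 genes for testing. The libraries were 4 labelled Kpna2 knockout, with the genotype Kpna2-/-, and 4 labelled wild type, with the genotype WT. The product of Kpna2 is an importin alpha, which binds the nuclear localization signal of a cargo protein and carries it through the pore. The comparison asked how gene expression in the testis differs between the genotypes, in work on infertile males and on how testis transcription factors are imported. The labels name no strain, no age beyond "adult", no design of the knockout allele and no number of animals behind a library, so each p-value rests on the spread between libraries, which may be technical.

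The nuclear pore is a ring-shaped assembly of many copies of each nucleoporin, set where the inner and outer nuclear membranes fuse. Its scaffold is made of the Y complex, which lies on both faces, and the inner ring, and it is held by a ring of membrane proteins. Nucleoporins rich in phenylalanine-glycine repeats fill the channel and bind import receptors, filaments on the cytoplasmic face release exported messenger RNA, and a basket extends into the nucleus. Importin alpha enters through this channel with importin beta, and at the basket Nup50 helps to release its cargo. In the testis the pore serves many cell types, from dividing spermatogonia and meiotic spermatocytes to spermatids whose nuclei are reshaped, besides the somatic Sertoli, Leydig and myoid cells.

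The gene named in the genotype went against its label. Kpna2, in CPM (reads per gene scaled by library size), measured 13.97, 15.1, 14.04 and 12.4 in libraries labelled wild type, against 15.3, 20.2, 19.4 and 21.7 in libraries labelled knockout. The mean was 38.1% higher under the knockout label (limma adjusted p = 0.0079). Every direction given here is therefore by label, knockout minus wild type. Reads were summed per gene, so the exons behind them are not known. The libraries held 31133443 to 37797812 reads. The testis label was checked against markers listed for 10 cell types, of which all but Nanos2 were in the table and none was at 0 in every library. Nearly every gene of the table was above 0 in each library (24919 to 24957 of 24988), so this presence says nothing about the tissue. Summed markers of elongating spermatids reached 30920 to 32380 CPM under the wild-type label and 27760 to 34820 CPM under the knockout label, the highest sums of the 10 lists. Of all tested genes 8.62% were called higher and 8.32% lower. Peritubular myoid markers had 5 of 10 called lower and none higher (453 to 532 against 390 to 413 CPM), and endothelial markers 2 of 10 lower and none higher (46.0 to 52.0 against 36.7 to 45.3 CPM). Sertoli markers had 3 of 16 lower and 1 higher (1743 to 1871 against 1539 to 1765 CPM), and Leydig markers 4 of 12 lower and 2 higher (1312 to 1550 against 942 to 1367 CPM). Of the germ cell lists, differentiating spermatogonia had 3 of 8 markers lower and none higher, although their summed level was 636 to 735 against 706 to 783 CPM. Spermatocytes had 1 of 12 higher and 1 lower, and no marker was called in the lists of undifferentiated spermatogonia, round spermatids, elongating spermatids and macrophages. In a whole tissue, fewer cells of a type and less RNA per cell cannot be told apart, and the part of these shifts in the nucleoporin values was not tested.

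Of the 31 nucleoporins, Nup35, Nup43 and Gle1 rose and Rae1 fell at an adjusted p under 0.05 by limma, a linear model fitted across all genes. That is 12.9% of the members, where 16.9% of all 22027 tested genes were called. By direction, 9.68% of the members were called higher and 3.23% lower, against 8.62% and 8.32% of all genes. The median log2 fold change of the 31 was 0.02 and that of all tested genes -0.01, on the scale of log2(CPM + 0.5). The median size of the change regardless of direction was 0.08 for the members and 0.13 for all tested genes. These medians were not matched for level. Under the wild-type label, all members but Nup210 and Nupl1 lay above the median tested gene in CPM per kilobase of merged exons. For 9 members (29.0%) the 4 values under one label did not overlap the 4 under the other, against 20.9% of all genes, and 4 of these were higher and 5 lower under the knockout label (10.1% and 10.7% of all genes). An unadjusted p under 0.05 was reached by 10 members (32.3%), against 30.2% of all genes.

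The same 4 members were called by edgeR's quasi-likelihood test on recovered reads with TMM scaling (16.7% of all genes called), by edgeR with the authors' scaling (16.8%) and by DESeq2 (18.0%). The other 27 members had log2 fold changes between -0.15 and 0.15. For 26 of these 27 the 95% interval of the log2 fold change lay inside a change of 1.25-fold in either direction. The exception was Nupl1, with the fewest reads of the 31. An adjusted p above 0.05 does not show that a member was equal under both labels.

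**Figure D1:**
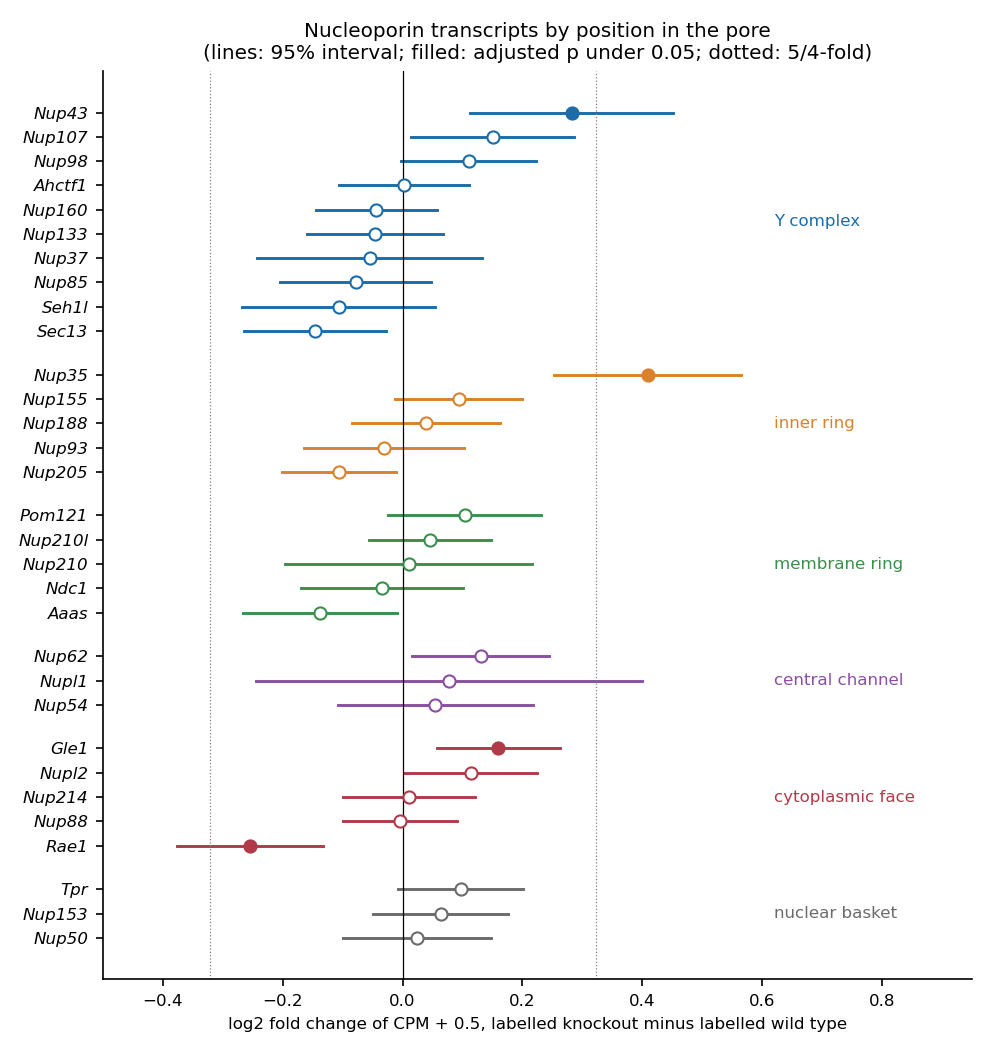
Log2 fold change (x axis, log2 of CPM + 0.5, labelled knockout minus labelled wild type) of each nucleoporin, grouped by its place in the pore, with its 95% interval as a line, filled points for an adjusted p under 0.05 and dotted lines at 1.25-fold. Nup35 at 0.41, Nup43 at 0.28 and Gle1 at 0.16 lie to the right and Rae1 at -0.25 to the left, while the other 27 lie between -0.15 and 0.15.

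The Y complex is the main scaffold of the outer rings, and 10 members belong to it or join it. Nup43, a propeller-shaped subunit (chromosome 10, 7667503 to 7678881 in GRCm38), stood at 20, 21.2, 18.8 and 18.5 CPM in libraries labelled wild type, and at 23.1, 27.6, 21.8 and 23.6 CPM in libraries labelled knockout. The groups did not overlap, and knockout replicate 2 was the highest. The mean went from 19.6 ± 1.21 to 24.03 ± 2.49 CPM (SD, n = 4), 22.4% higher, with a log2 fold change of 0.28 (SE 0.08, limma adjusted p = 0.025). Nup43 was not called in 4 of 20 alternative settings, among them those without wild-type replicate 3 or 4 and without knockout replicate 2 (adjusted p = 0.066, 0.067 and 0.062).

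The other 9 Y complex members were not called. Sec13, a subunit that also serves the coat of transport vesicles, came nearest, at 77.2, 76.0, 72.8 and 73.6 CPM in libraries labelled wild type, and at 61.8, 70.8, 71.0 and 67.5 CPM in libraries labelled knockout. The groups did not overlap, the means differed by -9.57%, and the limma adjusted p was 0.087. Nup107, one of the subunits of the stalk of the Y, stood at 41.7 ± 3.66 and 46.2 ± 1.01 CPM (adjusted p = 0.13), and it was called in 1 alternative, without wild-type replicate 4, its highest library under that label at 46.7 CPM. Nup98, whose product is cut into the channel protein Nup98 and the Y complex subunit Nup96, stood at 490 ± 19.1 and 529 ± 31.99 CPM (adjusted p = 0.17) and was called only without knockout replicate 2. Nup160, a long subunit of the Y, stood at 52.7 ± 0.718 and 51.1 ± 0.679 CPM, with no overlap between the groups, a change of -3.01% and an adjusted p of 0.58. Nup133 stood at 61.2 ± 1.88 and 59.3 ± 2.90 CPM, Nup85 at 34.6 ± 1.90 and 32.8 ± 1.13, Nup37 at 21.9 ± 1.80 and 21.1 ± 2.43, and Seh1l, which also acts in nutrient signalling, at 16.3 ± 0.485 and 15.1 ± 1.29 CPM. Ahctf1, known as ELYS, which seeds new pores on chromatin after mitosis, stood at 313 ± 19.5 and 313 ± 6.64 CPM. Within the Y complex 4 log2 fold changes were positive and 6 negative, with a median of -0.04, and that of Ahctf1 turned negative with quantile normalization.

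The inner ring lines the channel and anchors the FG-repeat nucleoporins, and 5 members form it. Nup35, which links the ring to the membrane (chromosome 2, 80617236 to 80658906 in GRCm38), stood at 18.2, 18.1, 17.4 and 18.8 CPM in libraries labelled wild type, and at 21.7, 23.6, 25.0 and 26.9 CPM in libraries labelled knockout. Every library labelled knockout lay above every library labelled wild type, and the spread under the knockout label was wider. The mean went from 18.1 ± 0.572 to 24.3 ± 2.20 CPM, a rise of 34%, with a log2 fold change of 0.41, an SE of 0.07, a 95% interval of 0.25 to 0.56 and a limma adjusted p of 0.0015. By unadjusted p Nup35 was number 968 of the 22027 tested genes. It was called in all 20 alternatives, with an adjusted p of 6.2e-06 to 0.0073. In the annotation used here 3.89% of its exon bases are shared with Dusp19 on the same strand, and Dusp19 stood at 13.1 ± 1.6 and 13.1 ± 1.48 CPM.

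Nup205, the large scaffold protein of the inner ring, stood at 452, 429, 457 and 421 CPM in libraries labelled wild type, and at 415, 398, 414 and 407 CPM in libraries labelled knockout. These groups did not overlap, with a difference of -7.12% in the mean, and the limma adjusted p was 0.12. Its partner in the same layer, Nup188, stood at 245 ± 9.28 and 253 ± 19.5 CPM, with 12.4% of its exon bases shared with other gene models. Nup93, the linker that organizes the ring, stood at 40.2 ± 1.63 and 39.4 ± 2.76 CPM, and Nup155, which contacts the membrane, at 54.5 ± 2.11 and 58.1 ± 0.697 CPM (adjusted p = 0.22). Nup35 was the single called member of the ring, and the other 4 had log2 fold changes of -0.11 to 0.09.

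**Figure D2:**
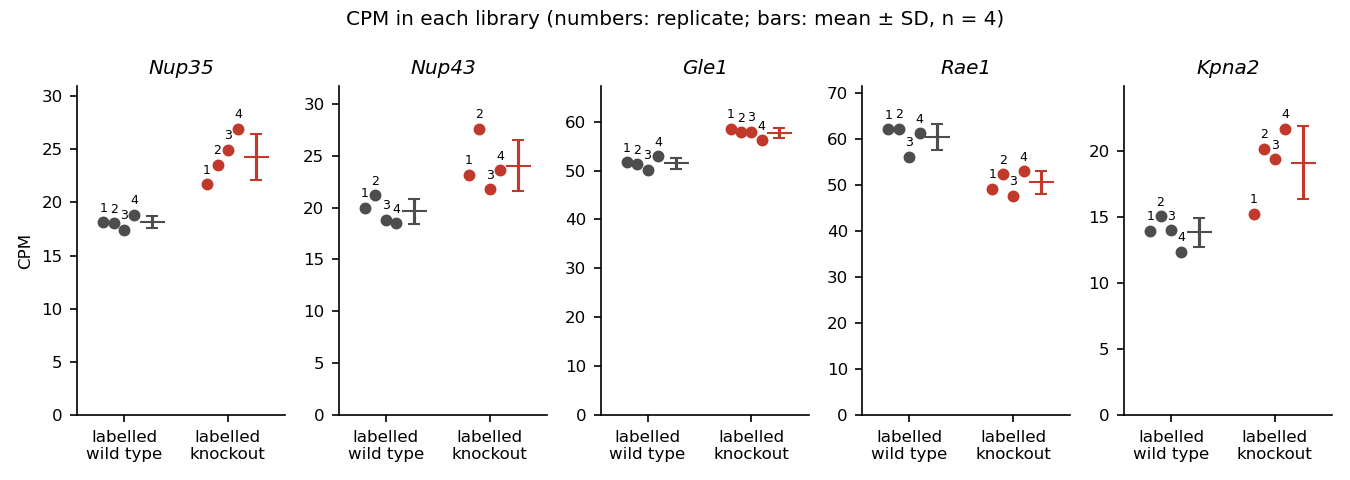
CPM (y axis, from 0) of Nup35, Nup43, Gle1, Rae1 and, as the label check, Kpna2 in each library, with the replicate number beside each point and the mean ± SD (n = 4) at its side. The red points of Nup35, Nup43, Gle1 and Kpna2 lie above all 4 grey ones, and those of Rae1 lie below.

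Among the 5 members of the membrane ring none was called by limma, edgeR or by DESeq2, and 1 had an unadjusted limma p under 0.05. Aaas, or aladin, which is held at the pore by Ndc1, stood at 27.1, 26.9, 26.7 and 26.6 CPM in libraries labelled wild type, and at 26.2, 24.3, 23.1 and 23.8 CPM in libraries labelled knockout. Its groups did not overlap, the means differed by -9.20%, and the limma adjusted p was 0.14. Ndc1 itself stood at 25.0 ± 1.35 and 24.4 ± 0.970 CPM, and Pom121, a membrane protein needed to form pores in interphase, at 192 ± 10.6 and 207 ± 15.3 CPM (adjusted p = 0.27). In the annotation 11.9% of the exon bases of Pom121 overlap Nsun5 on the opposite strand.

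The membrane ring also holds a pair of related genes with very different levels. Per kilobase of merged exons, Nup210l stood at 30.9 ± 1.04 CPM and Nup210, the large membrane glycoprotein of the pore, at 1.34 ± 0.0772 CPM under the wild-type label. The ratio of Nup210l to Nup210 per length was 24.1, 24.2, 23.6 and 20.5 under the wild-type label, against 19.1, 24.7, 26.5 and 24.9 under the knockout label. Nup210l exceeded Nup210 in every library under both labels, and the ranges of the ratio overlapped between the labels. With the length of the longest coding transcript in place of the merged exons, the ratio was 15.5 ± 1.19 and 16.0 ± 2.18. As plain CPM, Nup210l stood at 177 ± 5.92 and 183 ± 7.48 and Nup210 at 14.1 ± 0.808 and 14.3 ± 2.16, and neither was called (adjusted p = 0.57 and 0.96).

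The central channel has 3 members on the list, none of them called by any of these tools and 1, Nup62, with an unadjusted limma p under 0.05. Nup62, the central FG-repeat protein, was the member of highest level per length. It stood at 221, 227, 210 and 222 CPM in libraries labelled wild type, and at 234, 221.5, 257 and 252 CPM in libraries labelled knockout. Knockout replicate 2 lay inside the wild-type range and the other 3 above it. The mean was 9.61% higher with a limma adjusted p of 0.12, and Nup62 was called only without knockout replicate 2 (adjusted p = 0.032). Nup54, its partner in the channel, stood at 14.0 ± 0.623 and 14.6 ± 1.14 CPM. The promoter window of Nup62, from 250 bases before to 50 after its start in RefSeq on GRCm38.p6, is shown because it holds the palindrome of the factor NRF1 in a member of high level. Nup50 and Nup107, which also hold it, ranked 7 and 15 per length, while Nup153 and Nup205, ranked 2 and 3, do not hold it. Whether the match goes with level was not tested. The Nup62 window lies at chr7:44815838-44816137 on the plus strand, and the capitals mark the match to the NRF1 letters.
Nup62: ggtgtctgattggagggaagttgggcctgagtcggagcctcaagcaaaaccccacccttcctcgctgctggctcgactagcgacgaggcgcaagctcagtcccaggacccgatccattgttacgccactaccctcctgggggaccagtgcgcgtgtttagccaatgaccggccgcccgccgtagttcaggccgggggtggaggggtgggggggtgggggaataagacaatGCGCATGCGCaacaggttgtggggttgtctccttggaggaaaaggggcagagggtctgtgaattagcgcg

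Nupl1, also known as Nup58, needs a reading of its gene model. The row named Nupl1 held 0.562 ± 0.154 and 0.616 ± 0.122 CPM, with 14 reads in its lowest library. In GENCODE M21 this identifier spans chromosome 14 from 60184612 to 60251431, has no transcript of the protein-coding type, and shares 55.4% of its exon bases with other gene models. The overlapping model Gm49336, at 60205282 to 60251507 on the same strand, has 3 protein-coding transcripts. RefSeq places Nupl1 at 60205284 to 60251479, within the span of Gm49336. Gm49336 stood at 47.9, 50.1, 50.1 and 49.5 CPM in libraries labelled wild type, and at 53.3, 53.4, 48.1 and 52.6 CPM in libraries labelled knockout, with a log2 fold change of 0.07 and a limma adjusted p of 0.43. The row of the symbol therefore does not hold the reads of that coding model, and Gm49336, a gene chosen after its values were seen, was not called either.

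The cytoplasmic face, where messenger RNA leaves the pore, had 1 member called higher and 1 lower among 5. Over all tested genes the shares were 8.62% higher and 8.32% lower, and 5 members are too few to set against them. Gle1, which activates the RNA helicase Ddx19 in mRNA export (chromosome 2, 29935426 to 29960371), stood at 51.7, 51.3, 50.2 and 52.9 CPM in libraries labelled wild type, and at 58.5, 57.8, 57.9 and 56.2 CPM in libraries labelled knockout. The groups did not overlap, and both spreads were narrow: 51.5 ± 1.11 against 57.6 ± 1.01 CPM. The rise was 11.8%, a log2 fold change of 0.16 (SE 0.05, limma adjusted p = 0.033). The call was lost in 8 of 20 alternatives, 6 of them those without wild-type replicate 1, 2 or 3 or knockout replicate 1, 2 or 3 (adjusted p of 0.053 to 0.087).

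Rae1, an mRNA export factor that binds Nup98 and also acts at the mitotic spindle (chromosome 2, 173000117 to 173015739), was the only member called lower. It stood at 62.1, 62.2, 56.2 and 61.3 CPM in libraries labelled wild type, and at 49.3, 52.4, 47.7 and 53.1 CPM in libraries labelled knockout. The groups did not overlap, and wild-type replicate 3 was the lowest under its label. The mean went from 60.5 ± 2.89 to 50.6 ± 2.55 CPM, 1.19-fold lower, with a log2 fold change of -0.25, an SE of 0.06, a 95% interval of -0.38 to -0.13 and a limma adjusted p of 0.0067. Rae1 was called in all 20 alternatives, with an adjusted p of 0.00079 to 0.030. No exon base of Gle1, Rae1 or Nup43 is shared with another gene model in the annotation used.

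The promoter windows of Gle1 and Rae1 are shown because these members of the same pore face were called in opposite directions, while each holds 1 exact match to the ETS letters CCGGAAG. They lie at chr2:29935159-29935458 and chr2:172999867-173000166, both on the plus strand of GRCm38.p6 in RefSeq, and the capitals mark the ETS match.
Gle1: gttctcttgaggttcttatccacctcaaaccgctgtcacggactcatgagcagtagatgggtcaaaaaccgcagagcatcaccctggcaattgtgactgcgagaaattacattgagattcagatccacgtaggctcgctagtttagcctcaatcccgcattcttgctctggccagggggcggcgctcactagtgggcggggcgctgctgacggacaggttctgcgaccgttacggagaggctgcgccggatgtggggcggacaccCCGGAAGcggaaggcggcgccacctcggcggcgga
Rae1: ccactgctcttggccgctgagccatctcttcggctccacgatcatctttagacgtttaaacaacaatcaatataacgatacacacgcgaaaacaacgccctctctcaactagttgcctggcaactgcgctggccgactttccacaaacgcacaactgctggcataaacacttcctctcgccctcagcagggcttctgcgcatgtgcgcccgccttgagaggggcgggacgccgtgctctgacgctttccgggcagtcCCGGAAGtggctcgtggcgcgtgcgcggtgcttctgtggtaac

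The other 3 members of the cytoplasmic face were not called. Nupl2, or Nup42, the partner of Gle1 at the pore, stood at 69.3, 68.8, 69.6 and 67.6 CPM in libraries labelled wild type, and at 80.9, 72.5, 72.4 and 72.6 CPM in libraries labelled knockout. The groups did not overlap, knockout replicate 1 stood apart from the other 3, and the limma adjusted p was 0.15 for a mean 8.41% higher. Without knockout replicate 1 the log2 fold change of Nupl2 went from 0.11 to 0.07 (adjusted p = 0.32). Nup214, the FG-repeat protein that faces the cytoplasm, stood at 139 ± 4.55 and 140 ± 7.87 CPM, and Nup88, which holds it there, at 170 ± 3.57 and 169 ± 5.70 CPM (adjusted p = 0.92 and 0.97).

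The nuclear basket, where importin alpha gives up its cargo, had no called member among 3 by limma, by edgeR or by DESeq2, and 0 had an unadjusted limma p under 0.05. Tpr, the coiled-coil protein of the basket, stood at 106, 101.5, 106 and 101.6 CPM in libraries labelled wild type, and at 116, 111, 114 and 104 CPM in libraries labelled knockout. Knockout replicate 4 lay inside the wild-type range and the other 3 above it, with a mean 7.05% higher and a limma adjusted p of 0.20. Nup153, which ties the basket to the ring, stood at 393 ± 10.8 and 411 ± 27.3 CPM (adjusted p = 0.45). Nup50, the basket protein that binds importin alpha, stood at 155 ± 8.45 and 157 ± 10.1 CPM, with a log2 fold change of 0.02, a 95% interval of -0.10 to 0.15 and an adjusted p of 0.82.

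Summed over the 31 members, the libraries held 3686, 3713, 3813 and 3726 CPM in libraries labelled wild type, and at 3908, 3632, 3896 and 3859 CPM in libraries labelled knockout. Knockout replicate 2 lay below the wild-type range and the other 3 above it, so that the groups overlapped. In each of the 6 places replicate 2 had the lowest sum under the knockout label. Its sum lay below every library labelled wild type in the inner ring (746 CPM), the membrane ring (420 CPM), the cytoplasmic face (482 CPM) and the basket (628 CPM), and inside the wild-type range in the Y complex (1120 CPM) and the central channel (236 CPM). Abundant members dominate sums. With members weighted equally (mean log2 difference from the wild-type mean), replicate 2 was highest under its label in the Y complex. It stood at 0.028, against 0.0089, -0.029 and 0.019 in replicates 1, 3 and 4, and was lowest in the other places. By this mean it lay above every library labelled wild type in the Y complex and the inner ring (0.047). It lay below them in the membrane ring (-0.091) and inside their range elsewhere and over all 31 (-0.0046). Its marker sums lay above those of the other 3 libraries labelled knockout for Sertoli cells (1765 CPM) and Leydig cells (1367 CPM), below them for differentiating spermatogonia (706 CPM) and inside their range for the other 7 lists. The part of these in the nucleoporin sums was not tested.

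**Figure D3:**
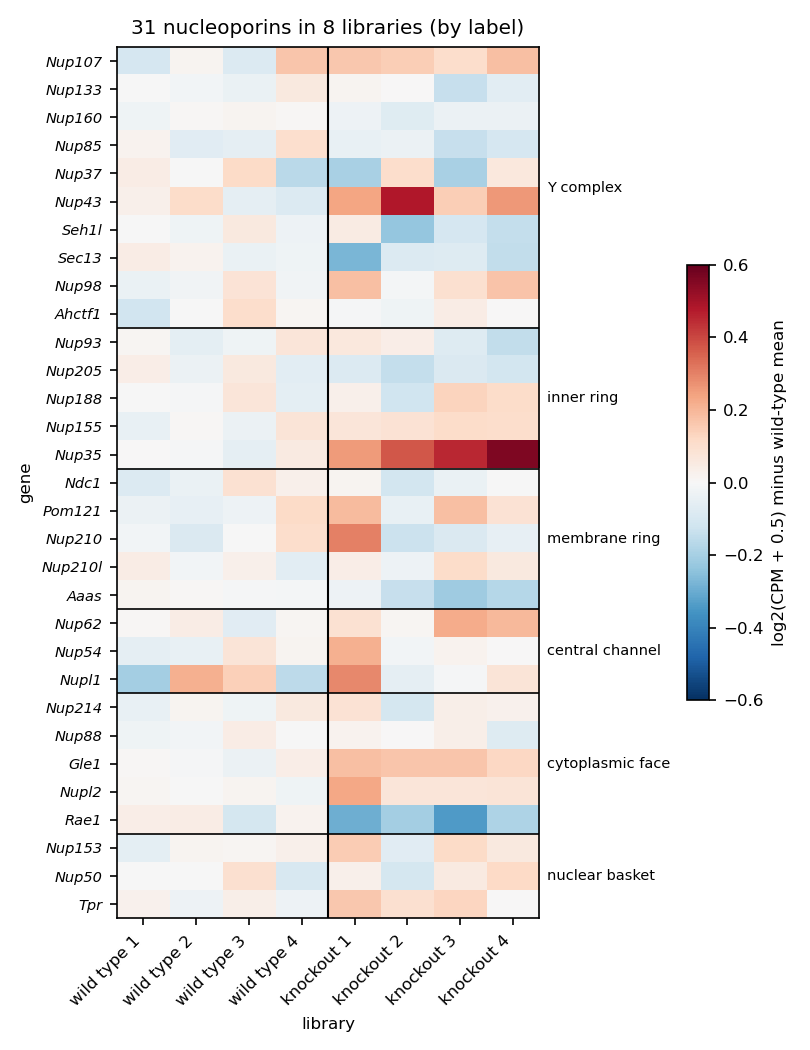
Log2(CPM + 0.5) of the 31 nucleoporins (rows, by place in the pore) in the 8 libraries (columns, by label), as the difference from the wild-type mean, with red above and blue below. Nup35 and Nup43 are red and Rae1 is blue in all 4 libraries labelled knockout, while most other rows stay pale.

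Levels were compared between members per length, as mean CPM per kilobase of merged exons under the wild-type label. Nup62 was highest at 77.1 ± 2.48, followed by Nup153 at 56.0 ± 1.54 and Nup205 at 47.3 ± 1.88, and these 3 did not overlap each other over the 4 libraries. Nup188 (39.3 ± 1.49) and Nup98 (38.9 ± 1.52) overlapped, as did Pom121 (34.5 ± 1.89), Nup50 (31.6 ± 1.73) and Nup210l (30.9 ± 1.04), each with the next. At the low end Nup54 and Seh1l (3.95 ± 0.118) overlapped, while Nup210 (1.34 ± 0.0772) and the row of Nupl1 (0.156 ± 0.0427) each lay below the member before it. In all, 17 of the 30 pairs of neighbours in the order overlapped. Against all tested genes, Nup62 lay at the percentile 95.5 of level per length, and Nup210 at 31.6.

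The median was 31.6 CPM per kilobase in the nuclear basket, 18.3 on the cytoplasmic face and 9.59 in the membrane ring. It was 9.47 in the Y complex, 9.45 in the inner ring and 4.22 in the central channel. Channel members ran from 0.156 (the row of Nupl1) to 77.1. The coding model Gm49336, whose span holds Nupl1 of RefSeq, stood at 3.88. Within the Y complex, levels per length ran from 3.95 (Seh1l) to 38.9 (Nup98, whose product also gives a channel protein). Sec13, which also serves vesicle coats, stood at 23.5 and Ahctf1 at 20.7. The other members of the complex ran from 3.95 to 10.8 (Nup107). Merged exons of many transcript models understate the level of a gene. With the longest coding transcript instead, 20 of the 30 members that have one moved by at most 3 places, and the largest move was 8 places (Nup88 up from 11 to 3, and Nup37 up from 23 to 15). Nup62 stayed first in both orders.

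**Figure D4:**
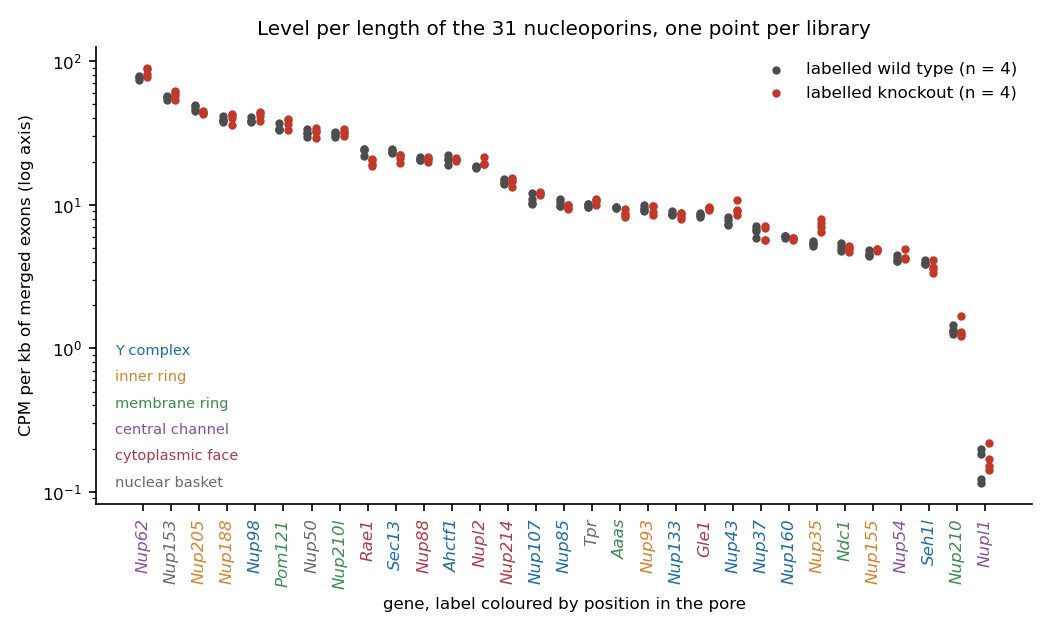
CPM per kilobase of merged exons (y axis, log scale) of each nucleoporin, ordered by its mean under the wild-type label, with 1 point per library in grey (labelled wild type) and red (labelled knockout) and gene names coloured by place in the pore. The levels run from 77.1 for Nup62 to 1.34 for Nup210 and 0.156 for the row of Nupl1, and the colours are mixed along the order.

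The members' promoter windows were rich in G and C. RefSeq windows of 300 bases were matched for 26 of the 31 symbols, with 29 windows in all (2 windows of Nup37 share 221 bases). Their median share of G and C was 63.7%, against 52.7% over all 32851 windows. This share was not taken over the windows of tested genes alone. The counts of letters that follow were not matched for the share of G and C. Exact matches on either strand were counted by gene, in any of its windows, for 6 sets of letters, and no matches of different sets overlapped in the members' windows. The ETS letters CCGGAAG were in 8 of 26 members (30.8%), against 9.93% of all 27025 genes with a window and 15.9% of the tested ones. The NRF1 letters, GCGCA followed by its reverse complement, were in 3 members (11.5%), Nup107, Nup50 and Nup62, against 1.07% and 1.76%. The CRE letters TGACGTCA were in 3 (11.5%), Nup133, Nup214 and Nupl2, against 2.03% and 3.11%. GGGCGG was in 69.2% (38.2% and 57.5%), CCAAT in 38.5% (41.1% and 42.1%) and TATAAA in 7.69% (15.7% and 10.3%). A match describes the letters in the window, and nothing here measured the binding of a factor.

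Of the 4 called members 3 (Gle1, Nup35 and Rae1) lie on chromosome 2, which holds 6 members, a count made after their values were seen. On that chromosome 16.2% of the 1592 tested genes were called, near the 16.9% of all genes. The 3 genes lie far apart, with starts at 29935426, 80617236 and 173000117 in GRCm38.

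Of 50 further genes that work at the pore, 49 were tested and 5 were called (10.2%), 2 higher and 3 lower, with a median log2 fold change of -0.0014. Among 13 other pore proteins and pore-bound enzymes limma, both edgeR fits and DESeq2 called none, and 1, Zc3hc1, which ties Tpr to the basket, had an unadjusted limma p under 0.05 (21.7 ± 1.08 and 19.2 ± 0.515 CPM, adjusted p = 0.079). Ranbp2, which builds the cytoplasmic filaments, stood at 129 ± 8.79 and 137 ± 3.17 CPM (adjusted p = 0.26). Of 21 mRNA export factors, Thoc7, a subunit of the THO complex, rose from 49.0 ± 2.60 to 56.5 ± 3.79 CPM, and Eny2, a subunit of the TREX-2 complex at the basket, fell from 20.2 ± 1.83 to 16.4 ± 1.59 CPM (limma adjusted p = 0.035 and 0.030). Of the genes for the helicase that Gle1 activates, Ddx19b stood at 174 ± 4.37 and 184 ± 7.83 CPM (adjusted p = 0.29). Its close copy Ddx19a stood at 6.65 ± 1.92 and 5.09 ± 0.357 CPM, with a log2 fold change of -0.32 (adjusted p = 0.20). Ddx19a was split under the wild-type label, at 5.16 and 4.82 CPM in replicates 1 and 2 and 8.15 and 8.46 CPM in replicates 3 and 4. Its values under the knockout label, 4.65 to 5.49 CPM, spanned the lower pair. Neither Ddx19b nor Ddx19a was called, and reads that both copies share are uncertain. Of 15 genes of pore assembly and quality control, Tor1b, a torsin ATPase of the nuclear envelope, rose from 24.2 ± 1.19 to 27.8 ± 1.12 CPM. Rtn3, a reticulon that shapes membranes, fell from 180 ± 6.66 to 156 ± 3.77 CPM and Reep3, which clears membranes from chromosomes in mitosis, from 7.36 ± 0.385 to 5.80 ± 0.548 CPM (limma adjusted p = 0.042, 0.0065 and 0.032). Rtn3 was called in all 20 alternatives, whereas Eny2, Reep3 and Thoc7 were each not called in 6 and Tor1b in 8.

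**Figure D5:**
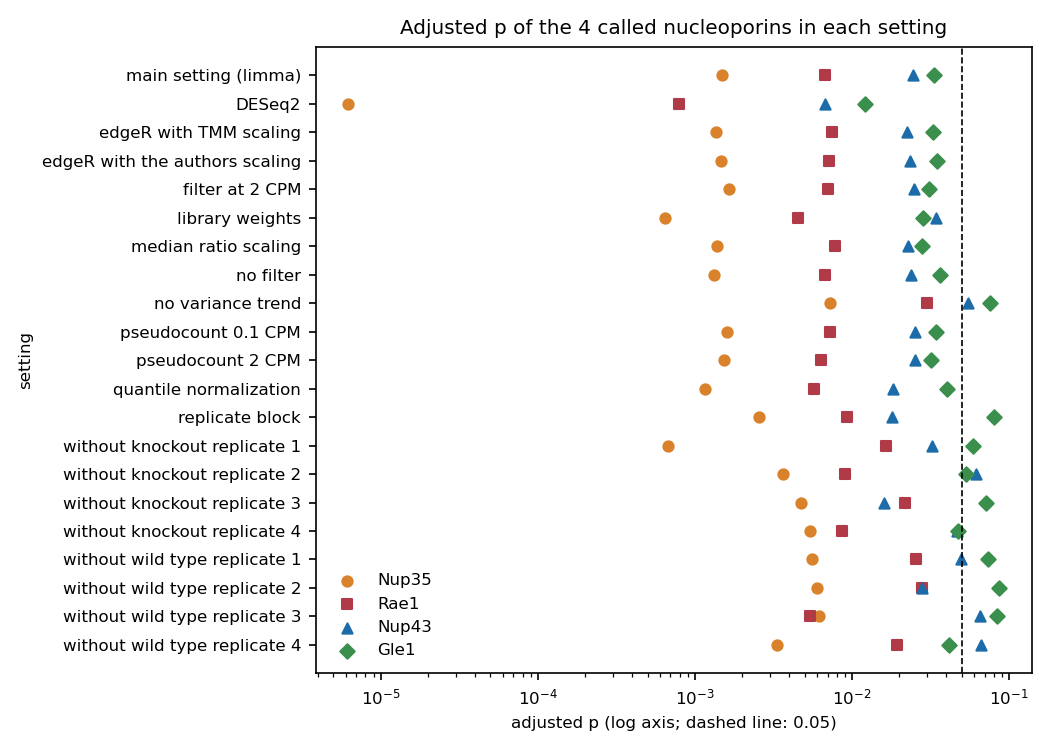
Adjusted p (x axis, log scale, with a dashed line at 0.05) of the 4 called nucleoporins in the main setting and in each of 20 alternatives (y axis). Nup35 and Rae1 lie left of the line in every setting, Nup43 lies right of it in 4 and Gle1 in 8.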

How the data were processed

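TRIzol extraction, DNase treatment and a TruSeq RNA kit were used on adult testis, per the labels' protocols. Tools listed in the submitters' processing notes are Trimmomatic, Subread and featureCounts, with build GRCm39 (mm39). Not given in the sources used here are tool versions, annotation, strandedness and how multi-mapping reads were counted, which leaves overlapping genes and close copies uncertain. The authors deposited 1 matrix of a scaled signal, named CPM, for 24988 Ensembl genes in 8 libraries, 4 labelled wild type (columns named control, taken to mean wild type) and 4 labelled knockout, matched by number. No other column was present.

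All values were whole multiples of 1 read within 0.01 (100% of values), giving 31133443 to 37797812 reads per library. A floor of 3 reads per library is 0.0786 to 0.0968 CPM, for counting error only. Unlike plain CPM, which the plan assumed, column totals differed between libraries (990244 to 1025490), and the planned log-scale test was kept. Pairs of libraries under 1 label differed by a chi-square per degree of freedom of 4.63 to 11.7, so none agreed within sampling noise.

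Genes whose mean over the libraries reached 0.5 CPM (22027) were tested with limma 3.58.1 (R 4.3.3) on log2(CPM + 0.5), with a mean-variance trend and no covariates, with Benjamini-Hochberg adjustment over all of them and a threshold of 0.05. Members, gene lists and tests were chosen with earlier results of these data known. Members are all accounted for, with values per library for those called and for the member of smallest p among the others at each place in the pore. Of the other pore genes, up to 4 called per list, or that of smallest p, are named, and Ranbp2, Ddx19a and Ddx19b were added after their values were seen. Positions, exon lengths and overlaps come from GENCODE M21 on GRCm38, another build than the authors used, and were not converted, and promoter windows come from RefSeq (GRCm38.p6). The limit of 1.25-fold for intervals and the level by longest coding transcript were chosen after seeing the data. Simulated counts for the 22027 genes held planted changes in 200 genes, all well above the filter. The test recovered 85.0% of planted 1.5-fold and 100% of 2-fold changes, and 6.57% of calls were unchanged genes. Smaller changes, such as that of every called nucleoporin, were not planted, so their recovery was not tested. Alternatives were other scalings, pseudocounts (0.1 and 2 CPM), filters (none and 2 CPM), no variance trend, library weights, a replicate block, each library left out, and edgeR 4.0.16 and DESeq2 1.42.0 on the recovered reads.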

Additional observations from a re-analysis of the deposited data

Results flagged for a closer look

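In 6 of 64 groups of 4 values (31 nucleoporins and Kpna2 under each label), 1 library stood apart from the other 3 by a gap larger, as a share of the group's range, than Dixon's 95% critical value. Chance gives about 1 in 20 such groups. Under the knockout label, replicate 1 was the high one for Nup210 (17.5 CPM, the next at 13.6), Nup54 (16.3 CPM, the next at 14.2) and Nupl2 (80.9 CPM, the next at 72.6), and replicate 2 was the low one for Nup160 (50.1 CPM, the next at 51.4). Under the wild-type label, Pom121 was high in replicate 4 (208 CPM, the next at 188) and Rae1 low in replicate 3 (56.2 CPM, the next at 61.3). The low value of Rae1 still lay above the 53.1 CPM that was its highest under the knockout label.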

How the results depend on the processing

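Across 20 alternatives, 588 of 619 values of single nucleoporins kept their direction and their side of the threshold. Changing only the filter, the variance trend or the replicate block leaves the log2 fold change as in the main setting. In those alternatives the direction could not turn, and only the adjusted p could move. Nup35 and Rae1 were called in all 20, and Kpna2 stayed higher and called (log2 fold change of 0.38 to 0.55 with 1 library left out). The count of called nucleoporins, 4 in the main setting, was 2 without the variance trend, and the count called higher, 3, was then 1. With 1 library left out these counts were 2 to 4 and 1 to 3, the lowest without wild-type replicate 3. Without knockout replicate 2 the 4 called members were Nup35, Rae1, Nup62 and Nup98. The 5 calls among other pore genes became 2 without the variance trend, 3 with the replicate block and 1 to 4 with 1 library left out, the lowest without wild-type replicate 3. The cause was not tested. No pairing by replicate number was seen: deviations of same-numbered libraries correlated at -0.031 to 0.039. None of the 4 wild-type libraries correlated best with its own number. Correlations this weak cannot exclude a shared batch or litter, which the labels do not name. With the replicate block 3446 genes and 3 nucleoporins were called, and Gle1 had an adjusted p of 0.080. Directions that turned belonged to 6 members with small changes: with quantile normalization Ahctf1 (-0.014), Nup214 (-0.0081) and Nup50 (-0.0023), and for Nup88 median ratio scaling (0.0013) and DESeq2 (0.0017). With 1 library left out, log2 fold changes ranged from -0.036 to 0.038 for Ahctf1, -0.062 to 0.0088 for Nup93, -0.088 to 0.057 for Nup210, -0.014 to 0.050 for Nup214, -0.017 to 0.020 for Nup88 and -0.0075 to 0.068 for Nup50. The row of Nupl1, with 161 reads in all, fell under the filter at 2 CPM and has no value there.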
